A study of Mus musculus with 16 samples.

Results

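The rows described here are the processed pseudogenes of cytosolic ribosomal proteins, which in mouse carry the symbol of the parent gene followed by -ps. They were selected on their counts: of 319 rows of the count table whose symbol starts with Rpl or Rps and holds -ps, the 90 with at least 10 counts in at least 4 of the 16 mice are the members, among 55487 rows in all and 18609 that passed the same filter. Of the other 229 rows, 97 had no count in any mouse and 132 had some, with a median total over the 16 mice of 2 counts. Just inside the threshold were Rpl17-ps3, Rpl27-ps1 and Rpl31-ps12, each with 10 counts in its 4th-highest mouse, and just outside were Rpl13-ps1, Rpl13-ps6 and Rpl15-ps2, each with 9. Reaching the threshold in 1 genotype alone favours members that are higher there, so counts over the members are given as a description.

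Bulk poly(A) RNA from the brain of 16 female mice on a C57/bl6 background was sequenced, with 4 mice per group of genotype and treatment. The human cholesteryl ester transfer protein, absent from normal mice, is encoded by a transgene in CETPtg mice. APPtg/CETPtg mice have it together with another transgene, mutant human APP driven by the neuronal Thy1 promoter, so the CETP transgene is common to all mice and no wild-type mouse was among those analysed here. All mice were fed 1% cholesterol by weight and received either evacetrapib, a CETP inhibitor, at 30 mg/kg, or vehicle for 11 weeks. Labels do not say whether mice shared a litter or cage, so p-values measure the spread between these mice.

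A processed pseudogene arises when the spliced mRNA of a gene is copied back into DNA by the reverse transcriptase of LINE-1 elements and inserted elsewhere in the genome, without the introns and promoter of its parent. Ribosomal protein mRNAs are among the most abundant in every cell, and their copies make up the largest family of processed pseudogenes in mammals. Most are held to be non-functional, and their sequences remain close to the parent for as long as few mutations have accumulated, which makes reads hard to place between copy and parent.

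All 90 members were found by identifier in the GENCODE M21 annotation of GRCm38 (mm10), which lists 80 as processed pseudogenes, 6 as transcribed processed pseudogenes and 4 (Rpl10-ps3, Rpl36a-ps1, Rpl9-ps6 and Rps18-ps5) as protein coding. They lie on 20 chromosomes, and 88 consist of a single exon block. Of the members, 57 lie outside other genes, 18 in an intron of a gene on the other strand, 12 in an intron of a gene on the same strand, and 3 overlap an exon of another gene. Copies of large subunit proteins (Rpl) number 52 and those of small subunit proteins (Rps) 38. They derive by name from 48 parents, of which 24 have 1 member and 24 have more. Rpsa, which encodes the small subunit protein also known as the laminin receptor, has 6 members and Rpl31 has 5. Identity to the parent's transcript over the aligned bases was 98.9% in the median and ranged from 87.5% to 100%. The exceptions to the naming were Rpl18-ps1, of which only 16 bases could be aligned to Rpl18, and Rpl36a-ps3, which has the lowest identity and shares 0% of its windows of 50 bases with Rpl36a and 81.6% with Rpl36al. Both are set beside the parent of the same name below, as the selection has it. A total of 9 members are identical to the parent over its whole coding sequence, and 13 hold no stretch of 50 bases that is absent from the transcripts of every other annotated gene. Of the 13, 9 share every such stretch with the parent, and the other 4 share between 71.5% and 82.4% with it and the rest with some other gene. How reads with several matches were counted is not given in the sources used here.

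Of the members, 88 covered at least 94.9% of the coding sequence of their parents, and the others were Rps15-ps3, with 61.6%, and Rpl18-ps1. Stretches of 90 bases, written 5′ to 3′ in the sense of the parent, show how little separates the members printed here from their parents. Of all 90 members, 30 have 10 or more differing bases. Rpl31-ps8 (chr15:90764279-90764656, minus strand, GRCm38/mm10) is shown because its reads gave the smallest p of the members between the genotypes and because it differs from Rpl31 at 0 positions of the coding sequence. Its first 90 bases are therefore those of Rpl31 as well.
Rpl31-ps8 and Rpl31: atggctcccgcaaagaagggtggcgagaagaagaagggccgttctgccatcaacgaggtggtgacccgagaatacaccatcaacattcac
Rpl31-ps11 (chr3:94604408-94604784, minus strand), another copy of the same parent, is shown beside it since the same parent has members with and without differing bases. The capitals mark its differing bases and those of Rpl31 at the same positions.
Rpl31-ps11: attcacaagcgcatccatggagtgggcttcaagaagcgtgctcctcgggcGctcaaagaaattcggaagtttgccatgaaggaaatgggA
Rpl31: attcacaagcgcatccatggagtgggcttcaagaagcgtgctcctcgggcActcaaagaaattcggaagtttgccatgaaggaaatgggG

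Rpl35a-ps2 (chr1:181241988-181242320, minus strand) had the largest fold change of the members and carries 1 differing base, marked in capitals, over the coding sequence of Rpl35a.
Rpl35a-ps2: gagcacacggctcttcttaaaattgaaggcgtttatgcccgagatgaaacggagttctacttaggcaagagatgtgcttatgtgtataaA
Rpl35a: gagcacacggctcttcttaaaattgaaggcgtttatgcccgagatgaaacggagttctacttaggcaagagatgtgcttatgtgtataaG
Rpl3-ps1 (chrX:13202571-13203780, plus strand) had the highest mean level of the members in CPM, and carries 2 differing bases over the coding sequence of Rpl3, of which 1 is in the stretch printed.
Rpl3-ps1: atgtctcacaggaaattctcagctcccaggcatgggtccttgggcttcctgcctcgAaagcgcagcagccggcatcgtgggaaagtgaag
Rpl3: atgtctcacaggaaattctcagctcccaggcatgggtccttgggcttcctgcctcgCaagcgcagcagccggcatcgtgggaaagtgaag

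Counted reads per mouse ranged from 28626139 to 37709734 in vehicle-treated and 33684250 to 46800787 in evacetrapib-treated CETPtg mice, and 21866883 to 55453789 and 21391335 to 25854334 in the same order in APPtg/CETPtg mice. In 7 of the 8 APPtg/CETPtg mice the total was below that of every CETPtg mouse. Levels are given in CPM (read counts relative to the library total), scaled by the trimmed mean of M-values. Each list of 5 brain cell type markers was detected, and the summed level of 5 liver markers, expected to be absent, stayed at or below 1.19 CPM in every mouse. Between the genotypes, summed oligodendrocyte markers ranged from 3542 to 4281 CPM in CETPtg and from 2749 to 3861 CPM in APPtg/CETPtg mice, with 2 of 5, Mbp among them, called lower, and summed microglial markers from 198.6 to 229.3 and from 208.3 to 248.4 CPM, with 2 of 5 (Aif1 and Tmem119) called higher. Of astrocyte markers 1 of 5 (Gja1) was called lower, with summed ranges of 888.8 to 951.6 and 715.6 to 1013 CPM, and 0 of 5 neuronal markers were called in either direction. Choroid plexus markers summed to 9.76 to 160.0 CPM in CETPtg and 10.7 to 457.7 CPM in APPtg/CETPtg mice, and pituitary markers to 1.04 to 20.6 CPM and 1.41 to 852.5 CPM, with the highest values in single mice. Mitochondrial transcripts took 3.28% to 4.09% of the counts in CETPtg and 2.77% to 3.45% in APPtg/CETPtg mice. The part of cell composition and RNA quality in the results below was not tested, and in bulk tissue fewer cells of a type and less RNA per cell cannot be told apart. By the index positions in the labels, the genotypes occupied different columns and the treatments different rows of the plate, so plate position and group cannot be told apart.

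The members were weakly represented. Their mean level over the 16 mice was 0.555 CPM in the median and ranged from 0.194 to 10.5 CPM, 25 of 90 exceeded 1 CPM, and the median count per mouse was below 10 for 18 of them. Per kb of exon, the median member reached 1.07 CPM and the median parent 70.8 CPM. The length was that of all annotated exons of a gene, as with 6270 bases for Rps15a against 392 for Rps15a-ps7. The medians of members and parents are therefore not on a like scale. Among the members, Rpl38-ps2 stood highest at 39.2 CPM per kb, followed by Rpl3-ps1 at 8.65, Rps16-ps2 at 7.93, Rps23-ps1 at 7.52 and Rpl31-ps8 at 7.49, and Rpl7-ps8 was lowest at 0.253. Summed over all members, the level ranged from 75.6 to 116.5 CPM (median 82.8) in CETPtg mice and from 103.1 to 117.0 CPM (median 109.9) in APPtg/CETPtg mice. The CETPtg maximum was mouse B of the evacetrapib group, in which Rpl3-ps1 alone was at 34.9 CPM. Without Rpl3-ps1 the sums were 67.8 to 81.7 CPM and 93.6 to 109.0 CPM, and the genotypes did not overlap. The summed level of the 48 parents moved with it, from 6482 to 7225 CPM in CETPtg and from 7479 to 8000 CPM in APPtg/CETPtg mice.

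The comparison of genotypes asked which members differed between mice with and without the APP transgene. Over all mice, with a term for the treatment, 27 of the 90 members were called by edgeR's quasi-likelihood test (Benjamini-Hochberg adjusted p at most 0.05 over all genes tested and a fold change at least 5% above 1), and each of the 27 was higher in APPtg/CETPtg mice. With the counts of every mouse thinned to the smallest total, 25 were called, 24 of them among the 27. Among all 18609 genes, 17.7% were called in either direction and 9.35% as higher in APPtg/CETPtg. The median log2 fold change was 0.39 over the members and 0.0046 over all genes tested. A total of 65 members had a positive and 25 a negative value, and 44 had an unadjusted p below 0.05, 40 of them higher. Of all 18609 genes tested, 9532 had a positive value and 5685 an unadjusted p below 0.05 in the same test. The called members were 16 copies of large and 11 of small subunit proteins, from 22 parents and on 15 chromosomes. For 14 members, every APPtg/CETPtg mouse lay above every CETPtg mouse, which held for 1.74% of the genes tested. Of the 66 members that reached the count threshold within each genotype, 20 were called, and of the 9 that reached it in APPtg/CETPtg mice only, 7 were called. None of the 8 that reached it in CETPtg mice only and none of the 7 that reached it in neither genotype alone were called.

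The same mice showed a smaller but more widespread difference in the genes for the ribosomal proteins themselves. Of 85 such genes tested from a list of 87, 69 were called higher and 0 lower in APPtg/CETPtg, at a median log2 fold change of 0.18 and a highest value of 0.42. Their summed level was 11530 to 12900 CPM in CETPtg and 13320 to 14260 CPM in APPtg/CETPtg mice. Among 134 other genes with a -ps symbol, 15 (11.2%) were called higher and 1 lower (median 0.13). Among 771 other genes annotated as processed pseudogenes, a set chosen after the data had been seen, 100 (13.0%) were called higher and 14 lower (median 0.11). Of all genes tested, 9.35% were called higher. These medians and counts are descriptions, and the difference between the sets was not tested.

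**Figure D1:**
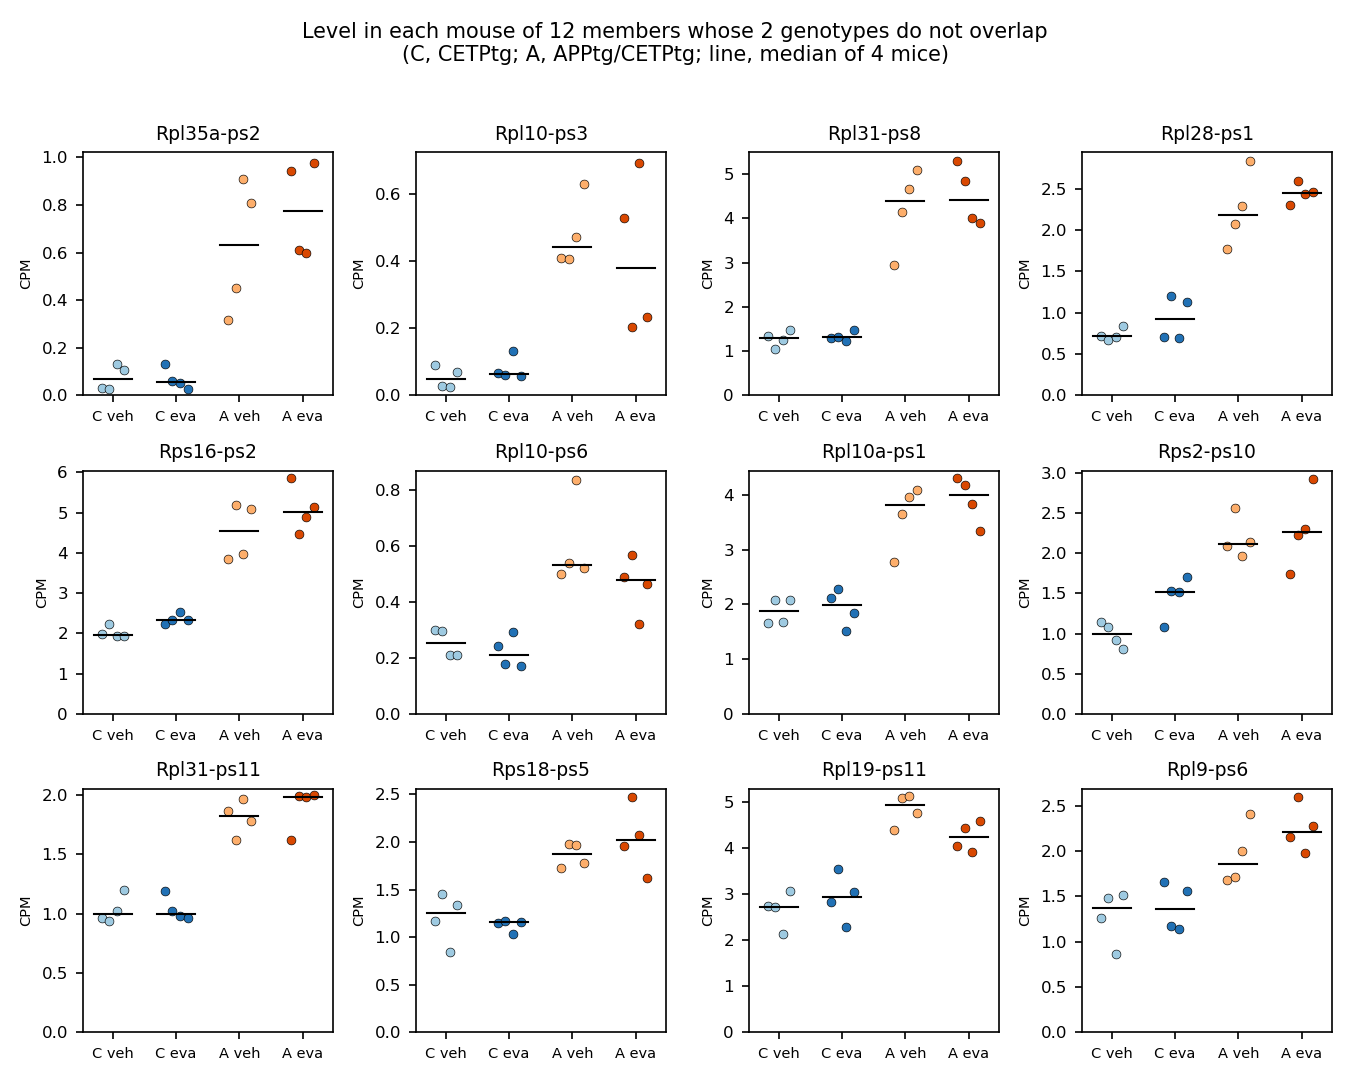
Level in CPM (vertical axis, from 0) of 12 of the 14 pseudogenes whose genotypes did not overlap, with 1 point for each of the 16 mice, grouped as CETPtg (C) or APPtg/CETPtg (A) with vehicle (veh) or evacetrapib (eva); the line is the median of 4 mice. In Rpl31-ps8 the CETPtg mice lie between 1.049 and 1.48 CPM and the APPtg/CETPtg mice between 2.95 and 5.29 CPM.

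Copies of large subunit proteins gave the largest folds. Rpl31, a protein near the exit of the peptide tunnel, has 5 members, of which 3 were called. Rpl31-ps8 ranged from 1.049 to 1.48 CPM (median 1.31) in CETPtg mice and from 2.95 to 5.29 CPM (median 4.402) in APPtg/CETPtg mice. The 2 genotypes did not overlap, and the log2 fold change was 1.75 ± 0.12 (SE), a 3.36-fold difference (edgeR, adjusted p = 2.68e-08). The parent Rpl31, with 158.7 to 182.4 CPM in CETPtg and 180.0 to 211.9 CPM in APPtg/CETPtg mice, changed by 0.22 ± 0.038. Rpl31-ps11 lay between 0.941 and 1.20 CPM (median 1.00) in CETPtg and between 1.62 and 1.996 CPM (median 1.91) in APPtg/CETPtg mice, again without overlap, and rose by 0.84 ± 0.10 (adjusted p = 3.81e-05). Unlike Rpl31-ps8, it holds stretches of its own, with 52.1% of its windows of 50 bases found in no other transcript. Rpl31-ps16 (chr17:85498633-85499008, plus strand) reached 0.106 to 0.300 CPM (median 0.213) in CETPtg and 0.232 to 0.771 CPM (median 0.603) in APPtg/CETPtg mice, with 1 overlapping APPtg/CETPtg mouse, and rose by 1.37 ± 0.24 (adjusted p = 0.000784). It reached 10 counts in 2 CETPtg and 7 APPtg/CETPtg mice, so its place among the members rested on the genotype in which it was higher. The other copies, Rpl31-ps10 with 0.86 and Rpl31-ps12 with 0.25, were not called.

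Rpl35a-ps2 derives from Rpl35a, a large subunit protein whose human gene is mutated in some patients with Diamond-Blackfan anaemia. Its counts were 1, 1, 5 and 3 in vehicle-treated and 6, 2, 2 and 1 in evacetrapib-treated CETPtg mice, against 7, 10, 25 and 45 and then 25, 15, 13 and 21 in APPtg/CETPtg mice. In CPM these were 0.0269 to 0.132 (median 0.0565) and 0.318 to 0.975 (median 0.709). No CETPtg mouse reached the lowest APPtg/CETPtg mouse, and the log2 fold change of 3.24 ± 0.33 was the largest of the members (9.44-fold, edgeR, adjusted p = 4.16e-06). It reached the threshold of 10 counts in 7 APPtg/CETPtg mice and in 0 CETPtg mice, so its place among the members rested on the genotype in which it was higher.

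Rpl10, which joins the large subunit late in its assembly and lies close to the peptidyl transferase centre, has 3 members. Rpl10-ps3 (chr9:50344201-50344968, minus strand), whose coding sequence is identical to that of Rpl10, had 1 to 5 counts in CETPtg and 5 to 35 in APPtg/CETPtg mice. In CPM it ranged from 0.0263 to 0.133 (median 0.0631) and from 0.203 to 0.691 (median 0.441), without overlap, and it rose by 2.72 ± 0.34 (adjusted p = 3.81e-05). This member, too, reached 10 counts in APPtg/CETPtg mice only, in 4 of them. Rpl10-ps6, on chromosome 19 in an intron of Ide on the same strand, ranged from 0.170 to 0.300 CPM (median 0.227) and from 0.323 to 0.837 CPM (median 0.510), and rose by 1.13 ± 0.20 (adjusted p = 0.000815). Its genotypes did not overlap either. Rpl10-ps5 went in the other direction, with medians of 0.657 and 0.482 CPM and a change of -0.47 that was not called (adjusted p = 0.115), and its ranges overlapped.

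Among further large subunit copies identical to their parent, Rpl28-ps1 (chr1:128038569-128038982, plus strand), in an intron of Zranb3 on the other strand, ranged from 0.672 to 1.20 CPM (median 0.715) in CETPtg and from 1.77 to 2.84 CPM (median 2.37) in APPtg/CETPtg mice. Its genotypes did not overlap, and it rose by 1.52 ± 0.14 (adjusted p = 1.73e-06). Rpl10a-ps1 (chr1:64993951-64994604, minus strand) ranged from 1.51 to 2.28 CPM (median 1.96) and from 2.77 to 4.30 CPM (median 3.90), also without overlap, and rose by 0.99 ± 0.11 (adjusted p = 1.02e-05). Rpl38 encodes a small protein of the large subunit with a role in the translation of Hox mRNAs in the embryo. Its copy Rpl38-ps2 (chr6:140746960-140747172, minus strand) ranged from 6.40 to 9.56 CPM (median 7.57) and from 7.80 to 10.1 CPM (median 9.05), with wide overlap. At 0.23 ± 0.074 (adjusted p = 0.0411) it had the smallest change of the called members, next to 0.26 for Rpl38, and the call was lost in 13 of the 16 fits that left out 1 mouse. Rpl36a-ps2, likewise identical to its parent, changed by -0.12 and was not called.

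Rpl7a-ps3 had 5 to 15 counts in CETPtg and 10 to 21 in APPtg/CETPtg mice, or 0.1501 to 0.331 CPM (median 0.225) and 0.323 to 0.975 CPM (median 0.741). The ranges overlapped in 1 mouse of each genotype, and it rose by 1.53 ± 0.23 (adjusted p = 0.000241), while Rpl7a, at 0.12, was not called. Rpl22-ps1, the called member least like its parent at 92.7% identity, ranged from 0.0899 to 0.186 CPM (median 0.148) and from 0.182 to 0.529 CPM (median 0.339), and rose by 1.16 ± 0.28 (adjusted p = 0.00816). Both reached 10 counts in at least 4 mice in APPtg/CETPtg only. Rpl19-ps11 (chr8:19492936-19493526, plus strand), with 1 differing base, ranged from 2.13 to 3.54 CPM (median 2.78) and from 3.92 to 5.13 CPM (median 4.51) without overlap, and rose by 0.71 ± 0.10 (adjusted p = 0.000144). Its sister copy Rpl19-ps6 overlapped between the genotypes, with 0.263 to 0.511 CPM (median 0.39) and 0.418 to 0.856 CPM (median 0.659), and rose by 0.70 ± 0.20 (adjusted p = 0.0197).

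Rpl9-ps6, listed as protein coding, ranged from 0.867 to 1.65 CPM (median 1.37) and from 1.68 to 2.60 CPM (median 2.08) and rose by 0.67 ± 0.13 (adjusted p = 0.00177), with no mouse of either genotype inside the range of the other. For Rpl30-ps10 the ranges were 0.289 to 0.592 CPM (median 0.403) and 0.461 to 0.907 CPM (median 0.694), and for Rpl17-ps10 0.987 to 1.62 CPM (median 1.35) and 1.53 to 2.72 CPM (median 1.73). Both overlapped between the genotypes, and they rose by 0.63 ± 0.19 (adjusted p = 0.0315) and 0.51 ± 0.14 (adjusted p = 0.0147). The call of Rpl30-ps10 was kept in 9 of the 16 fits without 1 mouse and that of Rpl17-ps10 in all 16. Rpl17 itself, at 0.088, was not called.

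Among the small subunit copies, Rps16-ps2 (chr5:129128077-129128517, minus strand), in an intron of Adgrd1 on the other strand and identical to its parent Rps16, ranged from 1.94 to 2.52 CPM (median 2.23) and from 3.86 to 5.85 CPM (median 4.99). The genotypes did not overlap, and it rose by 1.14 ± 0.089 (adjusted p = 1.90e-07).

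Rps2-ps10 is a transcribed processed pseudogene of a protein at the mRNA entry channel. It ranged from 0.811 to 1.70 CPM (median 1.11) and from 1.74 to 2.92 CPM (median 2.19) and rose by 0.89 ± 0.14 (adjusted p = 0.000275), and the lowest APPtg/CETPtg mouse stood just above the highest CETPtg mouse. Rps18-ps5, listed as protein coding, ranged from 0.841 to 1.45 CPM (median 1.17) and from 1.62 to 2.48 CPM (median 1.96), without overlap, and rose by 0.74 ± 0.12 (adjusted p = 0.000459). Rps13-ps2, identical to its parent, overlapped between genotypes at 0.473 to 0.775 CPM (median 0.553) and 0.676 to 1.397 CPM (median 1.04), and rose by 0.80 ± 0.17 (adjusted p = 0.00333). Rps27a, which encodes ubiquitin fused to a ribosomal protein, has the copy Rps27a-ps2, at 0.210 to 0.599 CPM (median 0.373) and 0.454 to 0.856 CPM (median 0.685), and it rose by 0.80 ± 0.21 (adjusted p = 0.0107). It overlapped as well, and the call was lost (adjusted p = 0.0679) when the counts of every mouse were thinned to the smallest total.

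The laminin receptor Rpsa has 6 copies, of which 2 were called. Rpsa-ps10 (chr3:150072658-150073542, minus strand) ranged from 2.13 to 3.60 CPM (median 2.94) and from 3.54 to 6.21 CPM (median 4.93), and rose by 0.73 ± 0.12 (adjusted p = 0.000352). Rpsa-ps9 ranged from 0.485 to 0.888 CPM (median 0.672) and from 0.766 to 1.25 CPM (median 1.01), and rose by 0.55 ± 0.16 (adjusted p = 0.019). In both copies the ranges of the genotypes overlapped. Rps23-ps2, which overlaps an exon of C330021F23Rik and holds no window of its own, ranged from 0.904 to 1.56 CPM (median 1.16) and from 1.25 to 2.41 CPM (median 1.71), and rose by 0.62 ± 0.16 (adjusted p = 0.00965). Rps15a-ps7 was a call with little support, with 3 to 16 counts in CETPtg and 5 to 27 in APPtg/CETPtg mice. Its medians were 0.211 and 0.434 CPM and its change was 0.84 ± 0.28 (edgeR, adjusted p = 0.0433). The call was kept in 5 of the 16 fits without 1 mouse, beside 3 of 16 for Rpl38-ps2. Rps15a-ps7 reached 10 counts in 3 CETPtg and 4 APPtg/CETPtg mice, and so entered through the genotype in which it was higher.

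No member was called lower in APPtg/CETPtg mice with all mice in the fit. Rpl36-ps12 was called lower without CETPtg mouse A (-0.36, edgeR, adjusted p = 0.0429) and Rpl10-ps5 without APPtg/CETPtg mouse S6 (-0.64, adjusted p = 0.0184), and with adjusted p up to 0.1 as the limit 2 of 36 calls were lower. An unadjusted p below 0.05 with a negative value was found for Rpl17-ps4, Rpl36-ps12, Rps15-ps2 and Rpl10-ps5. Rpl17-ps4 ranged from 1.47 to 1.79 CPM (median 1.67) in CETPtg and from 1.10 to 1.72 CPM (median 1.37) in APPtg/CETPtg mice, a change of -0.27 (edgeR, adjusted p = 0.088). Rpl36-ps12 ranged from 2.01 to 3.33 CPM (median 2.60) and from 1.55 to 2.63 CPM (median 2.19), a change of -0.30 (adjusted p = 0.0936). The ranges overlapped in both. The most negative value, -0.74 for Rpsa-ps4, rested on medians of 0.253 and 0.200 CPM (adjusted p = 0.178).

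The change of each member was set beside that of its parent. Of the 90 members, 68 had a parent that was called higher, and 56 had a larger log2 fold change than their parent, by 0.19 in the median over all 90. Among the 27 called members, 24 parents were called higher, their median log2 fold change being 0.20, and 26 of 27 members changed more than the parent, by 0.67 in the median, which is a description since the calls chose members with large changes. The exception was Rpl38-ps2. Parents of the 63 members that were not called changed by 0.16 in the median, while those members changed by 0.11, and the median difference between member and parent was -0.071. Since the same reads of the parent can enter both rows, a member and its parent are not independent measurements.

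**Figure D2:**
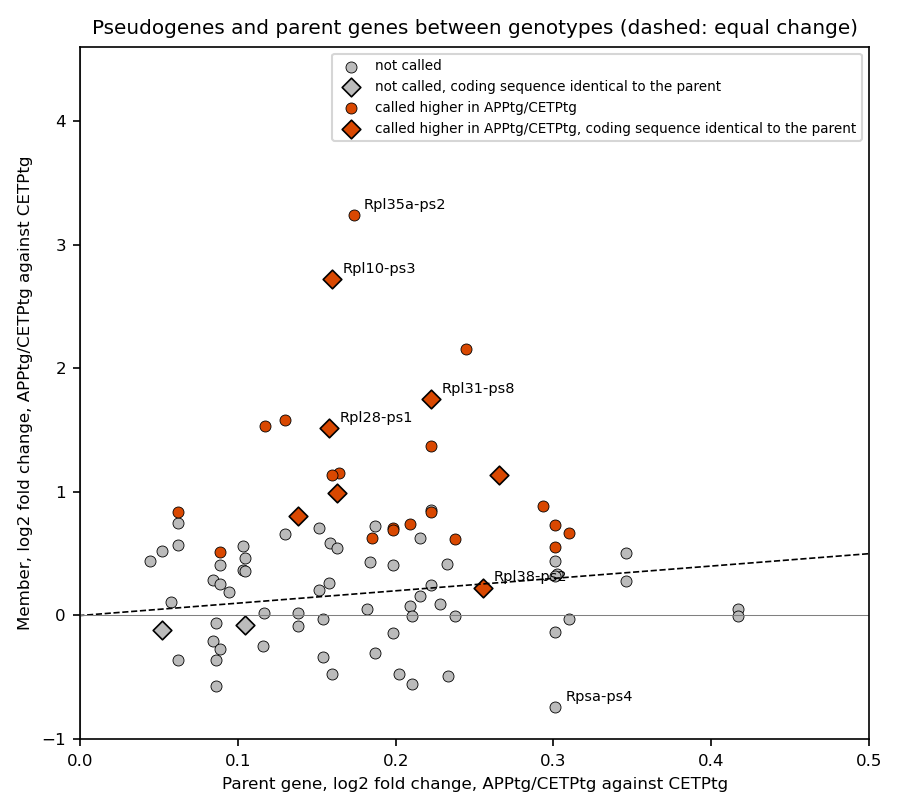
Log2 fold change between APPtg/CETPtg and CETPtg mice of each of the 90 pseudogenes (vertical axis) against that of its parent gene (horizontal axis), over all 16 mice; orange points are called, diamonds are identical to the parent over the coding sequence, and the dashed line marks equal change. Called pseudogenes reach 3.24 while no parent exceeds 0.42, and Rpl38-ps2 lies near the line.

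The share of a member in the reads counted on member and parent together is free of library size and scaling. Summed over the 8 mice of a genotype, the median member had a share of 0.395% in CETPtg and of 0.42% in APPtg/CETPtg mice, and the share was higher in APPtg/CETPtg mice for 56 of 90 members. It was at least 2 times as high for 9 of them. Rpl31-ps8 took 0.767% of the reads of the pair in CETPtg mice (0.692% to 0.848%, exact 95% Clopper-Pearson interval, which covers counting error only) and 2.23% (2.10% to 2.38%) in APPtg/CETPtg mice. By mouse its share was 0.596% to 0.851% and 1.37% to 2.85%, without overlap. Rpl28-ps1 went from 0.432% to 1.13%, Rps16-ps2 from 1.68% to 3.02% and Rpl10a-ps1 from 1.80% to 3.18%. Among the rarer copies, Rpl35a-ps2 went from 0.0935% to 0.819% and Rpl10-ps3 from 0.0461% to 0.295%. In these 5 as well, the shares of the 2 genotypes did not overlap between mice, and the same was found for 11 of 90 members in all. Rpl35a-ps2 and Rpl10-ps3, counted in both the 9 and the 11, reached 10 counts in 0 CETPtg mice. Their place among the members rested on the genotype in which they were higher, so their shares are a description. Such shares were not computed for genes outside the members, so the 11 have no value over all genes beside them. Rpl38-ps2, with by far the highest share, took 8.43% of the reads in CETPtg mice and 8.23% in APPtg/CETPtg mice. Its ranges of 7.23% to 9.60% and 7.37% to 9.28% overlapped almost fully.

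**Figure D3:**
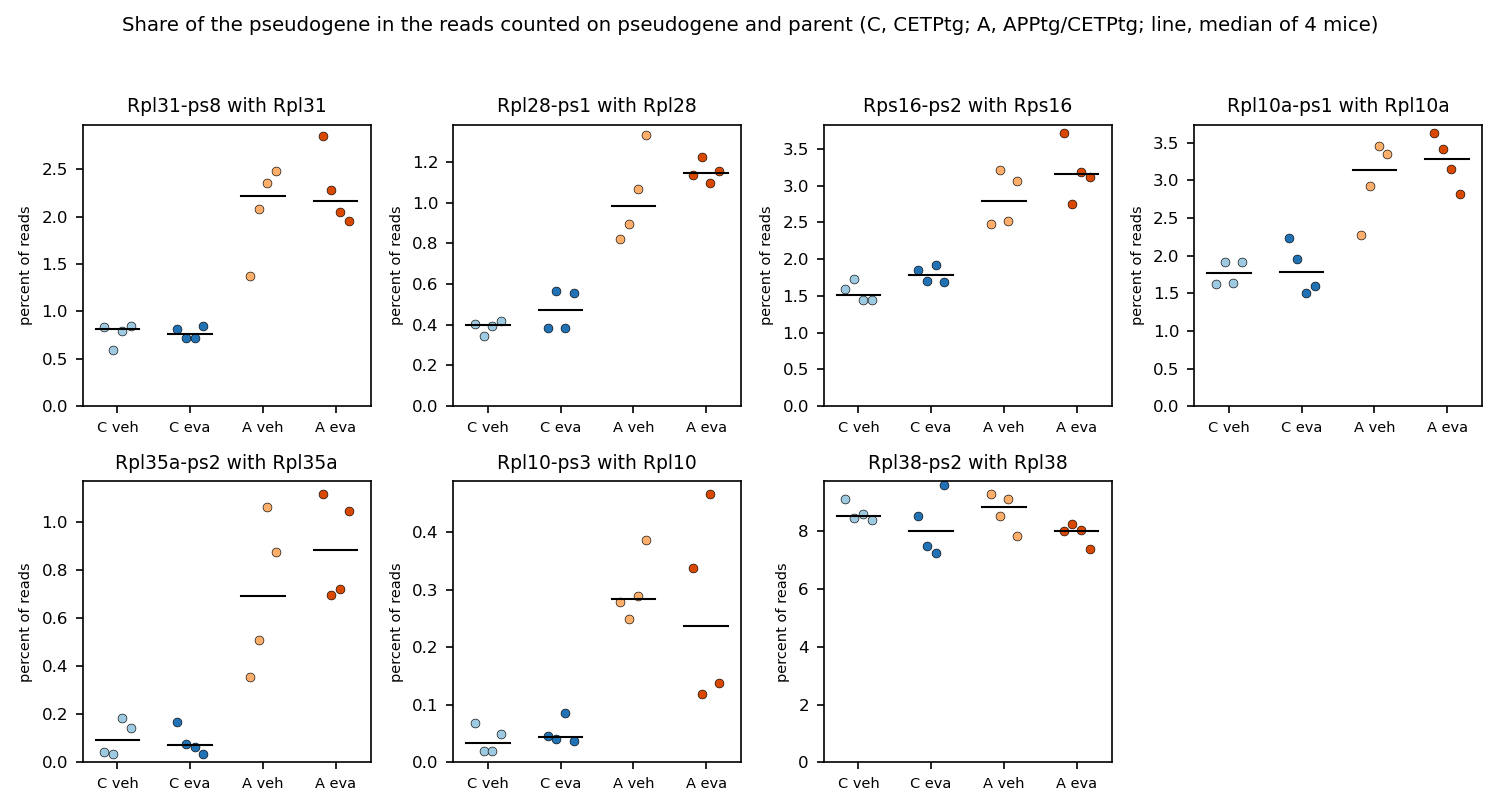
Share of the pseudogene in the reads counted on pseudogene and parent, in percent from 0 (vertical axis), for 7 pseudogenes in each of 16 mice, grouped as CETPtg (C) or APPtg/CETPtg (A) with vehicle (veh) or evacetrapib (eva); the line is the median of 4 mice. The first 6 pairs separate the genotypes, as with 0.596% to 0.851% against 1.37% to 2.85% for Rpl31-ps8, while Rpl38-ps2 lies between 7.23% and 9.60% in both genotypes. Of the 6, Rpl35a-ps2 and Rpl10-ps3 reached 10 counts in 0 CETPtg mice.

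Likeness to the parent was a property the selection did not use. Of the 9 members identical to the parent over the whole coding sequence, 7 were called and the median log2 fold change was 0.99, and of the other 81 members 20 were called with a median of 0.36. Grouped by differing bases, counting mismatches and gaps, 12 of 17 members with at most 1 difference, 10 of 42 with 2 to 9 and 5 of 30 with 10 or more were called, with medians of 0.80, 0.39 and 0.28. The shares of all genes to read these counts against are 17.7% in either direction and 9.35% higher, and the counts include the 7 called members that reached the threshold in APPtg/CETPtg mice only. Rpl18-ps1 was left out of this grouping. The closest copies also had the most counts, with a median level of 1.59, 0.611 and 0.432 CPM in the same order, and the part of depth in this order was not tested. Of the 2 identical copies that were not called, Rps6-ps4, with 3.36 CPM on average, changed by -0.074 and Rpl36a-ps2 by -0.12. By position, 18 of 57 members outside other genes, 6 of 18 in an intron on the other strand, 2 of 12 in an intron on the same strand and 1 of 3 overlapping an exon were called, beside the same shares of all genes.

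**Figure D4:**
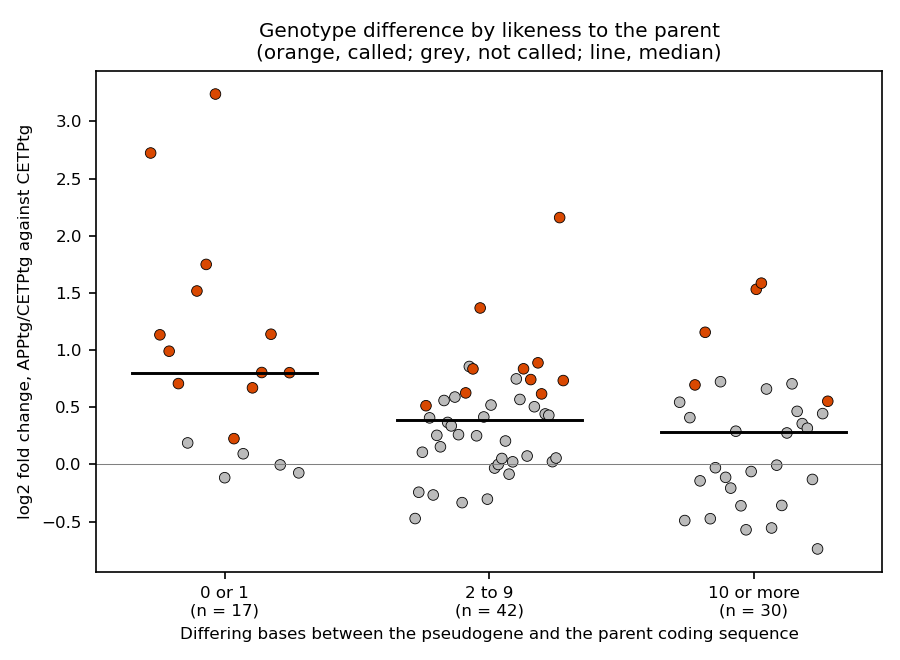
Log2 fold change between APPtg/CETPtg and CETPtg mice (vertical axis) of 89 pseudogenes, grouped by the number of bases that differ from the parent's transcript in the alignment. Each point is a pseudogene, orange where called, and the line is the median. The medians are 0.80, 0.39 and 0.28 from the closest to the most distant group, and each group spans values on both sides of 0.

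Under vehicle, 18 members were called, each higher in APPtg/CETPtg mice, against 10.4% of all genes in either direction and 5.98% higher. Under evacetrapib, 14 were called, again all higher, against 2.99% in either direction and 1.27% higher. These comparisons used different mice, 4 against 4 each, and 13 members were called in both, which is 72.2% of the calls under vehicle and 92.9% of those under evacetrapib. Rpsa-ps9 was called under evacetrapib only, and Rpl9-ps6, Rpl10-ps6, Rps15a-ps7, Rps2-ps10 and Rpl31-ps16 under vehicle only. A total of 57 members were higher and 14 lower under both treatments. Of the 18609 genes tested, 9254 were higher in APPtg/CETPtg mice under vehicle and 9730 under evacetrapib. How many of all genes were called, higher or lower under both treatments is not given here, so these overlaps have no value over all genes beside them. Under vehicle 3 of 5 astrocyte markers (Aqp4, Gja1 and Slc1a3) were called lower and 2 of 5 microglial markers higher, and under evacetrapib 0 of 5 and 1 of 5, and their part in the results was not tested. All 27 members called over all mice were among the 57. Under vehicle, Rpl31-ps8 was at 1.35, 1.049, 1.26 and 1.48 CPM in CETPtg and at 2.95, 4.15, 4.66 and 5.08 CPM in APPtg/CETPtg mice. That was a log2 fold change of 1.73 ± 0.17 (edgeR, adjusted p = 2.13e-05), without overlap. The same copy had the smallest p under evacetrapib, at 1.30, 1.32, 1.22 and 1.48 CPM in CETPtg and 5.29, 4.83, 4.01 and 3.90 CPM in APPtg/CETPtg mice, a change of 1.76 ± 0.17 (adjusted p = 2.41e-05). The second-smallest p under evacetrapib was that of Rps16-ps2, with 1.11 ± 0.13, beside 1.16 ± 0.13 under vehicle. The count under evacetrapib depended on single mice: it was 7 without CETPtg mouse A, 8 without APPtg/CETPtg mouse F, and 9 without CETPtg mouse C or D.

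The comparison of treatments asked whether evacetrapib changed the members. Over all mice, with a term for the genotype, 0 members were called, as were 0.0107% of all genes, and 4 members had an unadjusted p below 0.05 against 7.91% of all genes. Limma-voom called 0 members as well, and DESeq2 called 0 of the 64 members to which it gave an adjusted p. The 2 smallest p belonged to Rps15-ps3, with 0.510 to 0.952 CPM (median 0.731) under vehicle and 0.325 to 0.755 CPM (median 0.532) under evacetrapib, and to Rpl21-ps15, with 0.176 to 0.590 CPM (median 0.247) and 0.227 to 0.738 CPM (median 0.388). Both overlapped widely, and the log2 fold changes were -0.42 ± 0.19 and 0.53 ± 0.25 (edgeR, adjusted p = 0.616 and 0.623). The median over the members was 0.071.

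In CETPtg mice, 0 members were called by edgeR, DESeq2 or limma-voom, as was 0% of all genes by edgeR, and 5 members had an unadjusted p below 0.05 against 5.80% of all genes. Rps2-ps10 was at 1.14, 1.08, 0.920 and 0.811 CPM under vehicle and at 1.08, 1.53, 1.51 and 1.70 CPM under evacetrapib, with overlap and a change of 0.55 ± 0.19 (edgeR, adjusted p = 0.837). Rpl3-ps1, a copy of a protein that reaches into the peptidyl transferase centre, was at 8.98, 8.88, 7.75 and 9.13 CPM under vehicle and at 8.27, 34.9, 8.10 and 8.86 CPM under evacetrapib. The value of 34.9 CPM, 1165 counts, was mouse B alone. The change of 0.78 became -0.046 without that mouse.

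In APPtg/CETPtg mice, 0 members were called by edgeR and limma-voom and 0 of the 15 to which DESeq2 gave an adjusted p, 0.0430% of all genes were called by edgeR, and 4 members had an unadjusted p below 0.05 against 9.01% of all genes. Rps18-ps3 had 5, 4, 8 and 9 counts under vehicle and 16, 9, 15 and 6 under evacetrapib, or 0.227, 0.180, 0.291 and 0.162 CPM and 0.604, 0.365, 0.691 and 0.279 CPM. The groups overlapped in 1 mouse each, and the change was 1.21 ± 0.36 (edgeR, adjusted p = 0.298). Rpl10-ps5 was at 0.544, 0.991, 0.509 and 0.503 CPM under vehicle and at 0.378, 0.244, 0.461 and 0.325 CPM under evacetrapib, with no overlap and a change of -0.81 ± 0.29 (adjusted p = 0.407).

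The interaction asked whether the treatment effects differed between the genotypes. There were 0 members called by any of the 3 tools, as was 0% of all genes by edgeR, and 3 members had an unadjusted p below 0.05 against 6.83% of all genes, 1 with a positive and 2 with a negative value. For Rps18-ps3 the log2 effect of evacetrapib in APPtg/CETPtg minus that in CETPtg mice was 1.25 ± 0.49 (edgeR, unadjusted p = 0.0187, adjusted p = 0.703), and for Rps13-ps1, of the negative ones, it was -0.69 ± 0.31 (unadjusted p = 0.039, adjusted p = 0.711).

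**Figure D5:**
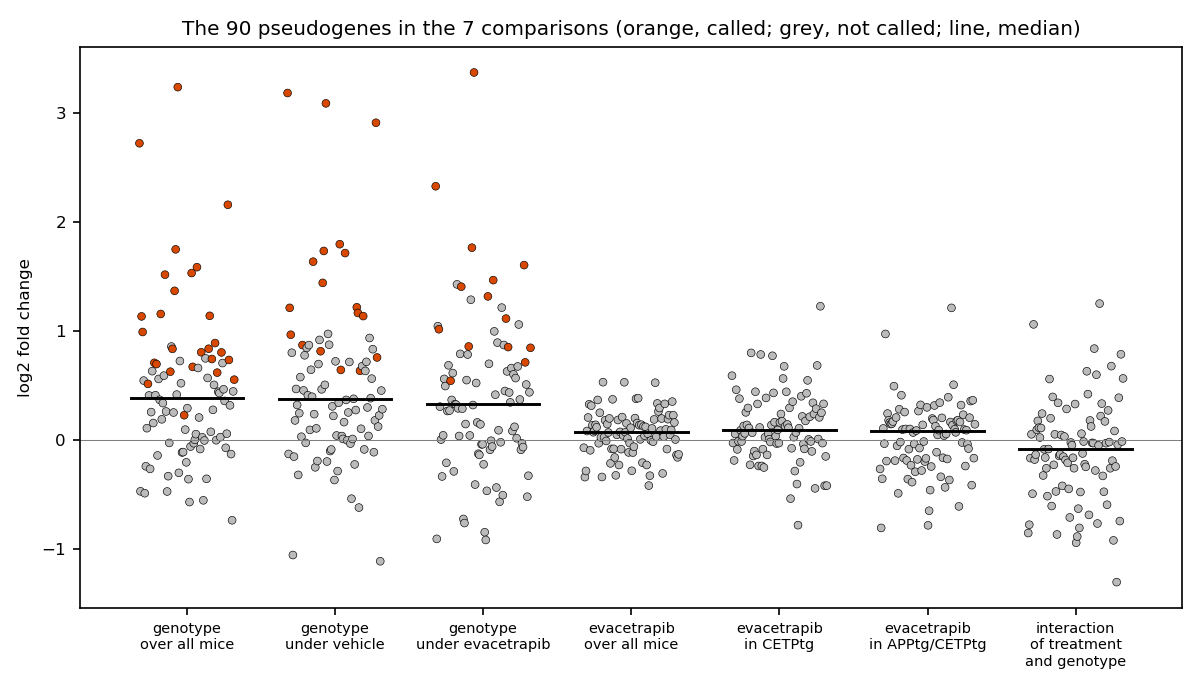
Log2 fold change (vertical axis) of the 90 pseudogenes in the 7 comparisons named on the horizontal axis; each point is a pseudogene, orange where called, and the line is the median. Called points appear in the 3 comparisons of genotype, all above 0 and numbering 27, 18 and 14, and in none of the comparisons of treatment or in the interaction.

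The members not described so far are given by their mean level over the 16 mice. In the large subunit, Rpl14-ps1 was at 2.16 CPM, Rpl3-ps2 at 1.35, Rpl17-ps5 at 1.28, Rpl28-ps3 at 1.23 and Rpl9-ps7 at 0.985, and their changes between the genotypes lay between -0.24 and 0.26. Rpl36a-ps2 was at 0.724 CPM and its sister copies Rpl36a-ps3 and Rpl36a-ps1 at 0.598 and 0.354 CPM. Between 0.40 and 0.65 CPM were Rpl23a-ps3, Rpl34-ps1, Rpl29-ps2, Rpl39-ps, Rpl18-ps1, Rpl19-ps4, Rpl7-ps9, Rpl36-ps2, Rpl18-ps2 and Rpl15-ps6, of which Rpl36-ps2 had the highest change, 0.72, and Rpl29-ps2 the lowest, -0.47. Lower still were Rpl31-ps10, Rpl5-ps2, Rpl21-ps8, Rpl19-ps7, Rpl10a-ps4, Rpl27a-ps4, Rpl13a-ps1, Rpl17-ps3, Rpl7-ps7, Rpl5-ps1, Rpl27-ps1, Rpl31-ps12 and Rpl7-ps8, from 0.384 CPM for the first down to 0.205 CPM for the last. Rpl13a-ps1 changed by -0.49 and Rpl7-ps8 by -0.57, and neither was called.

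In the small subunit, Rps6-ps4 was at 3.36 CPM, Rps23-ps1 at 3.20, Rps10-ps2 at 1.99, Rps7-ps3 at 1.83 and Rps10-ps1 at 1.32, and all 5 changed by between -0.074 and 0.056. Rps10, the parent of Rps10-ps1 and Rps10-ps2, had the largest change among the parents, 0.42, while its copies were at -0.0004 and 0.052. Rps26-ps1, Rps19-ps3, Rps13-ps1, Rpsa-ps7, Rpsa-ps12, Rps19-ps6, Rps13-ps4, Rps6-ps1 and Rps25-ps1 lay between 0.967 and 0.50 CPM. Their changes ran from -0.085 for Rps13-ps1 to 0.50 for Rps19-ps6. Of the rest, Rps24-ps3, Rps12-ps4, Rpsa-ps2, Rps15-ps2, Rps4x-ps, Rps15a-ps6, Rpsa-ps4, Rps15a-ps3, Rps6-ps3 and Rps15a-ps4 lay between 0.475 and 0.194 CPM. In this last group the changes ranged from -0.74 for Rpsa-ps4 to 0.75 for Rps15a-ps3, and none was called.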

How the data were processed

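RNA of 16 mouse brains was analysed. Per the labels and methods, the authors selected poly(A) RNA, made directional libraries, trimmed read pairs with Trimmomatic 0.39, aligned them to mm10 with STAR 2.7.8a and counted them with HTSeq. The annotation, the strand setting and the treatment of reads with several matches are not given in the sources used here. The deposited file holds raw counts, whole numbers that were not normalized. Members, lists and tests were chosen with earlier results of these data known.

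The 18609 genes that reached 10 counts in 4 or more mice were tested after TMM scaling with edgeR 4.0.16 (quasi-likelihood, two-sided; R 4.3.3) and Benjamini-Hochberg adjustment over all of them. The fit was tested on simulated data. Genotype and treatment entered an additive model, and contrasts within strata and the interaction a model of 4 group means. SEs derive from the fold change and its F. Members were aligned locally to coding transcripts of the parent from GENCODE M21, so differing bases can lie outside the coding sequence.

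By rule, the text describes in full the 4 members with the highest CPM, the 2 with the smallest p in each comparison and every called member. Some of these are not reported here, though counts over the members include them. Alternatives were DESeq2 1.42.0, limma-voom (limma 3.58.1), other filters, scalings and models, each mouse left out, and thinned counts, the last chosen after seeing the data.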

Additional observations from a re-analysis of the deposited data

Results flagged for a closer look

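Each member described in full was screened within each group of 4 mice for a mouse far from the other 3, by the gap to its nearest neighbour as a share of the group's range (Dixon's ratio, against its 95% critical value for 4 samples). Of 128 groups of 32 members, 9 passed, and chance alone flags about 5% of groups.

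The widest gap was that of Rpl3-ps1 in CETPtg mouse B under evacetrapib, at 34.9 CPM against 8.10 to 8.85 CPM in the other 3 (ratio 0.972). In the evacetrapib-treated CETPtg group, Rpl10-ps3 was high in mouse C at 0.133 CPM against 0.0568 to 0.0662 CPM (ratio 0.876), Rps15a-ps7 was high in mouse D at 0.454 CPM against 0.210 to 0.243 CPM (ratio 0.866), and Rps18-ps5 was low in mouse C at 1.04 CPM against 1.15 to 1.17 CPM (ratio 0.833). In the vehicle-treated CETPtg group, Rps16-ps2 was high in mouse S2 at 2.23 CPM against 1.94 to 1.98 CPM (ratio 0.853).

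In the APPtg/CETPtg groups, Rpl10-ps5 was high in vehicle mouse S6 at 0.991 CPM against 0.503 to 0.544 CPM (ratio 0.915) and Rpl10-ps6 in vehicle mouse S7 at 0.837 CPM against 0.499 to 0.541 CPM (ratio 0.876). Under evacetrapib, Rpl31-ps11 was low in mouse E at 1.62 CPM against 1.98 to 1.996 CPM (ratio 0.964) and Rps27a-ps2 was low in mouse G at 0.553 CPM against 0.679 to 0.696 CPM (ratio 0.884).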

How the results depend on the processing

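Of the 27 members called between the genotypes over all mice, 24 were called in all 16 fits that left out 1 mouse and 23 of these also under every other alternative that gave an adjusted p, and none changed sign. The exceptions were Rpl38-ps2, Rps15a-ps7, Rpl30-ps10 and, with thinned counts, Rps27a-ps2. The count of members called was 24 to 28 over all mice, 15 to 19 under vehicle and 7 to 18 under evacetrapib when 1 mouse was left out, and 0 to 0 for the treatment over all mice, in CETPtg, in APPtg/CETPtg and for the interaction. With at least 10 counts in every mouse, 38 members were left to test, and 16 were called over all mice and 10 under vehicle. DESeq2 called 14 of 29 members over all mice, 6 of 9 under vehicle and 7 of 15 under evacetrapib, and gave the other members no adjusted p. Of the 27, 13 had none, and all 27 had an unadjusted p below 0.05. Thinned to the smallest total, an alternative chosen after seeing the data, the counts gave 25 calls over all mice, of which 24 were among the 27. Without Rpl3-ps1 the summed level in APPtg/CETPtg mice fell to 101.7 CPM from 110.8 CPM. Rpl3-ps1 ranged from -0.41 to 0.086 between the genotypes and from -0.046 to 0.99 between treatments in CETPtg mice when 1 mouse was left out, and turned in sign, from -0.33 and 0.78 with all mice, only without mouse B. No paired analysis was possible because the mice carry unique names and no number shared between groups. The median count per mouse was below 10 in 18 members, and the smallest difference detectable there was not measured.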
